A study of Mus musculus with 12 samples.

Results

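Mitochondria of the heart fuse, divide and are removed by mitophagy, and the transcripts of 10 genes of this machinery were compared between hearts of control mice and of mice whose Cyb5r3 gene was deleted in cardiomyocytes. The genes were picked by name, as known members of this machinery, from the 53700 genes of the count data, with earlier results of these data known. They were the fusion genes Mfn1, Mfn2 and Opa1, the fission genes Dnm1l, Fis1 and Mff, and the mitophagy genes Pink1, Bnip3, Bnip3l and Fundc1. All 10 were found and all 10 passed the filter on low counts. RNA was sequenced from whole hearts of 6 ac-WT mice (CYB5R3wt/wt, Myh6-CreERT2) and 6 ac-CYB5R3–KO mice (CYB5R3fl/fl, Myh6-CreERT2). All mice were male, of a mixed background backcrossed 3 times to C57BL/6J, and all carried the Cre transgene and were given 5 daily doses of tamoxifen (33 mg/kg) when 10 to 13 weeks old. Hearts were taken 5 days later. The Myh6 promoter drives this Cre in cardiomyocytes, so the other cells of the heart kept Cyb5r3.

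Fusion joins the outer membranes of neighbouring mitochondria through the mitofusins MFN1 and MFN2 and the inner membranes through the GTPase OPA1. Fission is carried out by the dynamin-related GTPase DRP1, the product of Dnm1l, which is recruited to the outer membrane by adaptors such as MFF and FIS1. Damaged mitochondria are marked for autophagy by the kinase PINK1 and ubiquitin, or by the membrane receptors BNIP3, BNIP3L (NIX) and FUNDC1, which bind the ATG8 proteins of the autophagosome. Bnip3 is a known target of hypoxia-inducible factors in cardiomyocytes, and BNIP3L is known for the clearance of mitochondria from maturing red blood cells.

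Each heart gave between 43393183 and 53754284 counts in all. Cyb5r3 lay between 81.9 and 185 CPM (read counts relative to the TMM-scaled library size) in ac-WT hearts and between 42.0 and 67.4 CPM in ac-CYB5R3–KO hearts, without overlap. The fitted log2 fold change of this gene was -1.22 (SE 0.19, edgeR adjusted p = 0.0450). The adjusted p was 0.100 with the replicate number as a block and 0.315 when libraries were scaled by total counts, and leaving out 1 mouse at a time it missed 0.05 in 7 of 12 fits, with a lower level in ac-CYB5R3–KO hearts in every one. The hearts of ac-WT mice 2 and 3 stood apart from the other 10, with TMM factors of 0.570 and 0.723 against 0.988 to 1.22. The summed level of 8 cardiomyocyte markers was 46475 and 35985 CPM in these hearts, 17943 to 21387 CPM in the other 4 ac-WT hearts and 12873 to 20010 CPM in ac-CYB5R3–KO hearts. CPM are divided by the TMM factor, so the low factors of ac-WT mice 2 and 3 raise all their CPM, these sums included. Genes of the mitochondrial chromosome made up 35.3% and 34.8% of their counts and 24.0% to 30.1% in the other 10 hearts. The sum of 6 fibroblast markers was 1420 and 1458 CPM in the same ac-WT hearts and 3668 to 7033 CPM in all others. In whole-heart RNA, fewer cells of a type and less RNA per cell cannot be told apart. The main results below are therefore also given without ac-WT mice 2 and 3. Of the cartilage and airway markers 4 of 4 tested were higher in ac-CYB5R3–KO hearts, each with an unadjusted p under 0.05 and with a median log2 fold change of 2.26, and their sums did not overlap, at 3.72 to 40.5 CPM in ac-WT and 58.6 to 128 CPM in ac-CYB5R3–KO hearts. Of the red blood cell markers 6 of 6 were higher, 5 of them with such a p. The part of either list in the results below was not tested, apart from a fit with the red blood cell markers as a covariate. Of the cardiomyocyte markers 7 of 8 were lower, of the fibroblast markers 4 of 6, of the endothelial markers 4 of 5, of the macrophage markers 4 of 5 and of the smooth muscle markers 2 of 4, with an unadjusted p under 0.05 for 4, 0, 0, 0 and 3 of them (edgeR). Of the few adipose, lymphocyte and skeletal muscle markers tested (1, 3 and 2), 0, 2 and 1 were higher, and 1 had such a p, in the skeletal muscle list. The cartilage and airway genes Col2a1, Acan and Scgb1a1 stayed below 1 CPM in all hearts, so the sums of this list were nearly all Comp and Col11a1. The airway gene Scgb1a1 was not tested. Also below 1 CPM in all hearts were the 4 lymphocyte markers, the adipose markers Adipoq, Plin1 and Ucp1 and the skeletal muscle markers Myh1, Atp2a1 and Actn3.

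Among the 10 genes, the receptors Bnip3 and Bnip3l were higher in ac-CYB5R3–KO hearts, by 1.72-fold (95% interval 1.22 to 2.41) and 1.27-fold (1.08 to 1.49), and the fusion gene Mfn1 was lower, at 0.748 of its ac-WT level (0.570 to 0.981). None of the 10 passed an adjusted p of 0.05 in edgeR, where 0.101% of the 17847 genes tested did. DESeq2 called 1 of the 10, Bnip3, against 2.45% of all genes, and limma-voom called 0. At an unadjusted p under 0.05, 1 member was lower (9.73% of all genes were) and 2 were higher (4.91% of all genes were). At an unadjusted p under 0.01, 2 of the 10 were higher, Bnip3 and Bnip3l, against 1.33% of all genes, and 0 were lower, against 3.27%. Without ac-WT mice 2 and 3 neither had a p under 0.01, where 185 of 18299 genes were higher at that p. Leaving out 1 mouse, the highest edgeR unadjusted p was 0.0120 for Bnip3 and 0.0153 for Bnip3l. Groups that did not overlap were found for 0 of the 10 and for 1.55% of all genes. The median log2 fold change was -0.03 over the 10 genes, with 6 lower and 4 higher, and -0.01 over all genes, of which 51.2% were lower.

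**Figure D1:**
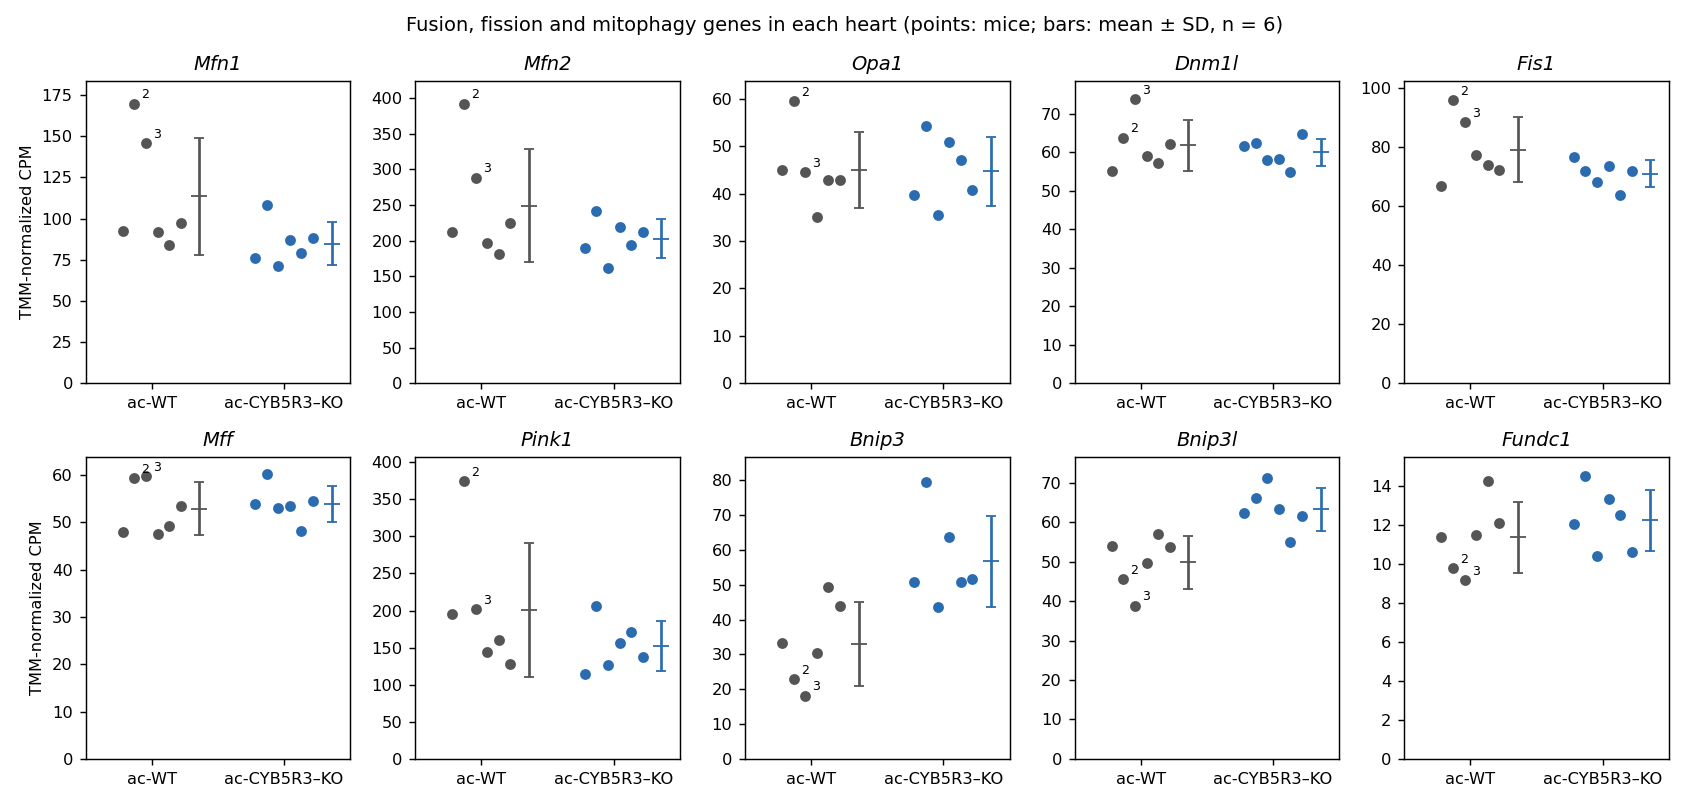
Levels of the 10 genes in each heart, in TMM-normalized CPM on linear axes from 0, with 1 point per mouse and the mean ± SD of each group of 6 beside the points. Small numerals mark ac-WT mice 2 and 3. Bnip3 and Bnip3l sit higher in 5 of 6 ac-CYB5R3–KO hearts than in any ac-WT heart, and ac-WT mice 2 and 3 are the highest ac-WT hearts for Mfn1, Mfn2, Fis1 and Pink1.

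Levels of different genes were compared per length, as RPKM with exon lengths from the NCBIM37 annotation. In ac-WT hearts the highest levels per length were those of Pink1 (75.1 ± 33.7, SD, n = 6), Mfn2 (47.9 ± 15.2) and Fis1 (46.1 ± 6.37 RPKM), whose ranges overlapped. Below them came Mfn1 (19.2 ± 6.00), Dnm1l (14.8 ± 1.60), Bnip3 (14.6 ± 5.29), Mff (12.9 ± 1.36) and Bnip3l (12.9 ± 1.75 RPKM), each overlapping the next. The lowest levels per length were those of Opa1 (5.71 ± 1.01) and Fundc1 (4.86 ± 0.77 RPKM). In ac-CYB5R3–KO hearts Bnip3 ranked 4 of 10 instead of 6, at 25.0 ± 5.73 RPKM (n = 6). Without ac-WT mice 2 and 3 it also ranked 4 in ac-WT hearts, at 17.3 ± 3.94 RPKM (SD, n = 4), so the change in rank rests on these mice. The range of Bnip3 in ac-CYB5R3–KO hearts, 19.2 to 35.1 RPKM, lay above that of Bnip3l, at 14.3 to 18.5 RPKM. In all 6 ac-WT hearts both ranges overlapped, at 8.01 to 21.8 and 10.1 to 14.8 RPKM. As in ac-WT hearts, Pink1, Fis1 and Mfn2 had the highest and Opa1 and Fundc1 the lowest levels per length, and the range of Bnip3 reached that of Mfn2.

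The largest of the 10 log2 fold changes was that of the mitophagy gene Bnip3. It encodes a BH3-only protein of the outer mitochondrial membrane, and the gene lies on chr7:146082519-146101202 (minus strand, NCBIM37). Its lowest, median and highest levels were 18.1, 31.8 and 49.4 CPM in ac-WT hearts and 43.5, 51.3 and 79.6 CPM in ac-CYB5R3–KO hearts. The groups overlapped, since the lowest ac-CYB5R3–KO heart lay below the ac-WT hearts of mice 5 and 6. The means were 33.01 ± 11.97 and 56.7 ± 13.0 CPM (SD, n = 6 each), and the log2 fold change was 0.78 (SE 0.23, 95% interval 0.29 to 1.27). The unadjusted p was 0.00429 and the adjusted p 0.188 by edgeR's quasi-likelihood test, and the two-sided exact permutation test over all placements of the mice gave p = 0.00649. DESeq2 gave an adjusted p of 0.0484, and under all alternatives it lay between 0.0373 and 0.837.

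The promoter of Bnip3 is shown because of this difference, beside that of Mfn1, the member with the largest lower value. The sequences are the 250 bases before the transcript start in RefSeq on GRCm38.p6, chr7:138909507-138909756 (minus strand) for Bnip3 and chr3:32529232-32529481 (plus strand) for Mfn1. Both are written 5′ to 3′ on the strand of the gene. Capitals mark matches, on either strand, to ACGTG and GCGTG, the core letters of the hypoxia response element, and to the E-box CACGTG.
Bnip3: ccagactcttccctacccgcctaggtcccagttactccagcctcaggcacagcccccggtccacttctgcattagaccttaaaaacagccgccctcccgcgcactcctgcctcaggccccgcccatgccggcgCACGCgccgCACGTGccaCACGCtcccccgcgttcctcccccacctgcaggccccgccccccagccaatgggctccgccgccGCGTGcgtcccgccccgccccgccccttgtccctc
Mfn1: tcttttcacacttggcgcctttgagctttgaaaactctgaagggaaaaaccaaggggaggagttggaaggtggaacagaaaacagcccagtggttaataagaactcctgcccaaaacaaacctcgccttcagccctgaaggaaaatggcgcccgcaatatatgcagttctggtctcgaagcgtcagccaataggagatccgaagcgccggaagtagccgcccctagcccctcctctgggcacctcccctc
The Bnip3 promoter held GCGTG 3 times, of which 2 were on the opposite strand and read CACGC here, and CACGTG once. The CACGTG is a palindrome and contains ACGTG on both strands, so the 2 matches to ACGTG are this same site. The Mfn1 promoter held 0 matches to any of the 3 motifs. Of 32851 promoter windows of this length, 16.6% held ACGTG, 28.2% held GCGTG, 2.77% held GCGTG at least 3 times and 6.02% held CACGTG. The Bnip3 window was 72.4% G or C and that of Mfn1 53.6%, and these shares were not matched for such content. A promoter was found for 9 of the 10 members, in 14 entries, and Bnip3l had none in the RefSeq table. Among the others, GCGTG was found in entries of Mfn2, Dnm1l and Pink1, and ACGTG in 1 entry of Mfn2. These matches describe the letters of the window and were not tested against the counts.

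Bnip3l encodes NIX, the closest relative of BNIP3, and lies on chr14:67604076-67627714 (minus strand, NCBIM37). Its lowest, median and highest levels were 38.8, 51.7 and 57.2 CPM in ac-WT hearts and 55.0, 62.9 and 71.4 CPM in ac-CYB5R3–KO hearts. In 5 of 6 ac-CYB5R3–KO hearts it was above every ac-WT heart, and the sixth, mouse 5, lay below 1 ac-WT heart. The means were 49.9 ± 6.74 and 63.3 ± 5.40 CPM (SD, n = 6 each), with a log2 fold change of 0.34 (SE 0.11, 95% interval 0.12 to 0.57). The unadjusted p was 0.00609 and the adjusted p 0.197 (edgeR), with an exact permutation p of 0.00433. DESeq2 gave an adjusted p of 0.0503, the lowest of all alternatives, which reached up to 0.876.

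Both receptors had their lowest levels in ac-WT mice 2 and 3, the hearts with the highest cardiomyocyte marker sums. Without these mice, the ac-WT range of Bnip3 was 30.4 to 49.4 CPM and the log2 fold change 0.55 (edgeR unadjusted p = 0.0123). For Bnip3l the range was 49.7 to 57.2 CPM and the log2 fold change 0.25 (edgeR unadjusted p = 0.0117). In this comparison of 4 and 6 hearts, 7.98% of all genes had an unadjusted p under 0.05. With the mean of the cardiomyocyte markers as a covariate, the log2 fold change was 0.54 for Bnip3 (edgeR unadjusted p = 0.0448) and 0.19 for Bnip3l (edgeR unadjusted p = 0.0942), where 5.87% of all genes had a p under 0.05. The summed red blood cell markers were 425 to 8210 CPM in ac-WT and 2538 to 24772 CPM in ac-CYB5R3–KO hearts. Bnip3l was highest in ac-CYB5R3–KO mouse 3, the heart with the highest red blood cell sum, but did not follow this sum across hearts. It was 66.2 CPM in ac-CYB5R3–KO mouse 2, which had the lowest such sum of its group. In ac-CYB5R3–KO mouse 6, with a sum of 13573 CPM, Bnip3l was 61.6 CPM. Bnip3 was highest in ac-CYB5R3–KO mouse 2. With the mean of the red blood cell markers as a covariate, a setting chosen after seeing the data, the log2 fold changes were 1.14 for Bnip3 (edgeR adjusted p = 0.0373) and 0.36 for Bnip3l (edgeR adjusted p = 0.125), where 26.5% of all genes had an unadjusted p under 0.05. In this fit 474 of 17847 genes passed an adjusted p of 0.05.

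Pink1, the kinase that accumulates on depolarized mitochondria, lies on chr4:137869324-137882222 (minus strand, NCBIM37). Its lowest, median and highest levels were 128, 178 and 375 CPM in ac-WT hearts and 115, 147 and 206 CPM in ac-CYB5R3–KO hearts. The highest value, in ac-WT mouse 2, whose TMM factor was the lowest, was far above the next ac-WT heart at 202 CPM. The log2 fold change was -0.40 (SE 0.24, 95% interval -0.92 to 0.12, edgeR adjusted p = 0.458, exact permutation p = 0.238), and it was -0.03 without ac-WT mice 2 and 3. Fundc1, a receptor known from hypoxia-induced mitophagy, lay between 9.16 and 14.2 CPM in ac-WT and between 10.4 and 14.5 CPM in ac-CYB5R3–KO hearts, with a log2 fold change of 0.11 (SE 0.12, 95% interval -0.16 to 0.37, exact permutation p = 0.364), and 0.01 without ac-WT mice 2 and 3. Fundc1 lies on chrX:17133690-17149451 (minus strand, NCBIM37).

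The fission genes differed little between the groups, and their coefficients of variation were 10.5% to 13.8% in ac-WT and 5.94% to 7.19% in ac-CYB5R3–KO hearts. Dnm1l, which lies on chr16:16312328-16359123 (minus strand, NCBIM37), was measured at 61.9 ± 6.69 CPM in ac-WT and 60.1 ± 3.57 CPM in ac-CYB5R3–KO hearts (SD, n = 6 each). The 95% interval of its log2 fold change ran from -0.24 to 0.15 around -0.04 (edgeR unadjusted p = 0.645). Mff, the main DRP1 adaptor (chr1:82721465-82748969, plus strand), was measured at 52.9 ± 5.55 and 53.9 ± 3.87 CPM, with a log2 fold change of 0.03 (95% interval -0.17 to 0.23, edgeR unadjusted p = 0.775). An exon of Mff overlaps the antisense lincRNA C430014B12Rik in the NCBIM37 annotation, and the strand setting of the counting is not given in the sources used here. Fis1 (chr5:137429145-137442104, plus strand) was measured at 79.0 ± 10.9 and 70.9 ± 4.53 CPM, with a log2 fold change of -0.16 (95% interval -0.38 to 0.06, edgeR unadjusted p = 0.149). The 2 highest values of Fis1 were those of ac-WT mice 2 and 3, and without them the log2 fold change was -0.02. For Dnm1l and Mff it was 0.05 and 0.13 without these mice. With all hearts, the intervals leave out a log2 change of 0.5 in either direction for all 3 genes.

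Of the fusion genes, both mitofusins had lower mean levels in ac-CYB5R3–KO hearts, neither past the adjusted threshold, and Opa1 had nearly equal means. Mfn1, on chr3:32428387-32478161 (plus strand, NCBIM37), had a lowest, median and highest level of 83.9, 94.9 and 169.9 CPM in ac-WT hearts and 71.1, 82.9 and 108 CPM in ac-CYB5R3–KO hearts. The means were 113 ± 35.4 and 84.9 ± 13.1 CPM (SD, n = 6 each), with a log2 fold change of -0.42 (SE 0.18, 95% interval -0.81 to -0.03). The unadjusted p was 0.0376 and the adjusted p 0.310 in edgeR, and the exact permutation p was 0.0779. The ac-WT hearts of mice 2 and 3, at 169.9 and 146 CPM, were above all other hearts. The other 4 ac-WT hearts lay between 83.9 and 97.1 CPM, within the range of the ac-CYB5R3–KO hearts, and without mice 2 and 3 the log2 fold change was -0.09 (edgeR unadjusted p = 0.444).

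Mfn2, which also tethers mitochondria to the endoplasmic reticulum, lies on chr4:147247708-147278813 (minus strand, NCBIM37), and the same ac-WT hearts were its highest. It was measured at 249 ± 79.1 CPM in ac-WT and 203 ± 27.7 CPM in ac-CYB5R3–KO hearts, and its highest values were 392 and 288 CPM in ac-WT mice 2 and 3. The log2 fold change was -0.30 (SE 0.18, 95% interval -0.69 to 0.10, edgeR adjusted p = 0.465) with all hearts and 0.01 without these mice. Opa1 (chr16:29579420-29654970, plus strand) was measured at 45.0 ± 7.95 and 44.7 ± 7.23 CPM, with a log2 fold change of -0.01 (95% interval -0.30 to 0.28, edgeR unadjusted p = 0.949), and 0.12 without ac-WT mice 2 and 3.

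**Figure D2:**
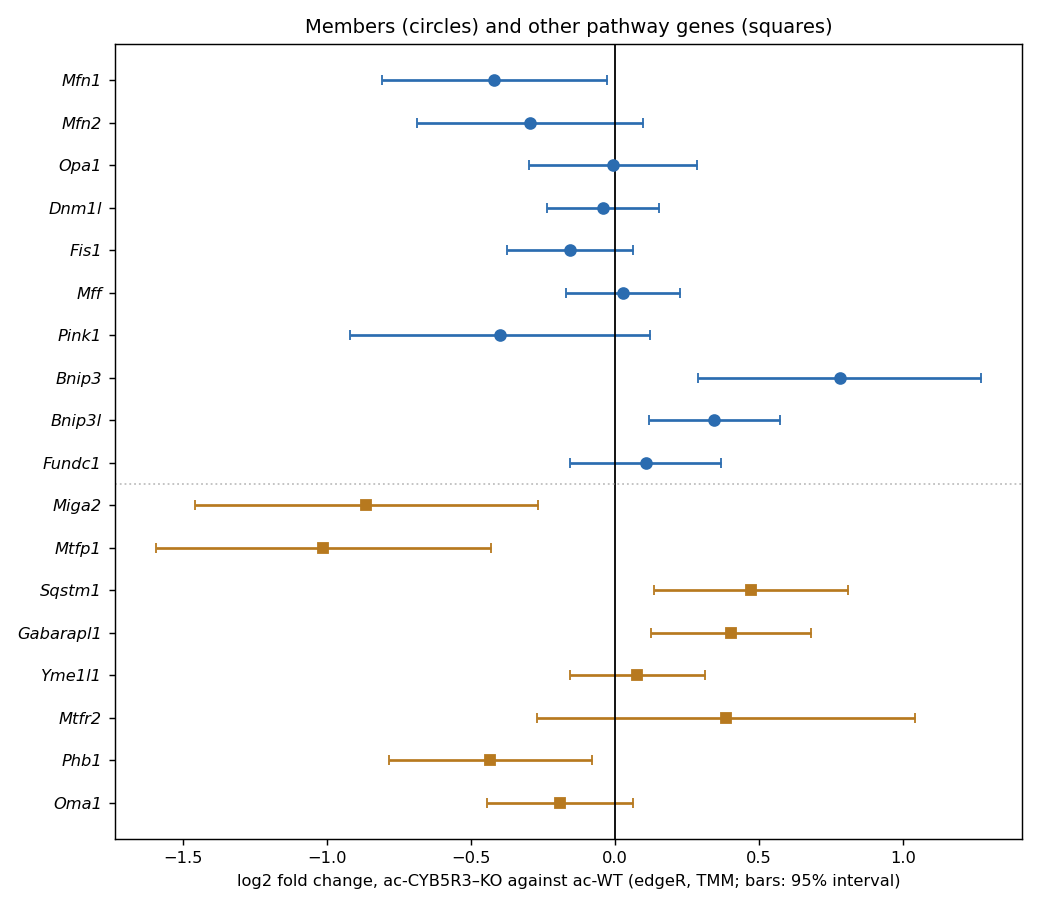
Log2 fold changes (ac-CYB5R3–KO against ac-WT, edgeR with TMM, 6 hearts per group) with 95% intervals for the 10 members (circles) and 8 other genes of the pathway (squares). The intervals of Bnip3, Bnip3l and Mfn1 leave out 0 among the members, and none of the 18 genes passed an adjusted p of 0.05.

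Ratios of 2 transcripts within a heart do not depend on how libraries are scaled. In all, 4 such ratios are given, compared by exact permutation tests with Benjamini-Hochberg adjustment over the 5 tested, and 0 passed an adjusted p of 0.05, with 3 at an unadjusted p under 0.05. Mff reads per Fis1 read, the balance of the DRP1 adaptors, were 0.673 ± 0.050 in ac-WT and 0.760 ± 0.046 in ac-CYB5R3–KO hearts (SD, n = 6 each). All 6 ac-CYB5R3–KO hearts were above the ac-WT median, and the mean log2 ratio was 0.18 higher (exact permutation p = 0.0108, adjusted p = 0.0541). Mfn1 reads per Mfn2 read were 0.456 ± 0.028 and 0.418 ± 0.021, a difference in mean log2 ratio of -0.12 (exact permutation p = 0.0216, adjusted p = 0.0541). Bnip3 reads per Bnip3l read were 0.646 ± 0.162 and 0.899 ± 0.200, a mean log2 difference of 0.48 (exact permutation p = 0.0455, adjusted p = 0.0758). The lowest ac-CYB5R3–KO value of this ratio, 0.609 in mouse 3, lay within the ac-WT range of 0.467 to 0.865. Opa1 reads per Dnm1l read, a fusion gene against a fission gene, were 0.730 ± 0.130 and 0.746 ± 0.131 (exact permutation p = 0.833, adjusted p = 0.833). Without ac-WT mice 2 and 3 the adjusted p was 0.131 for both Mff to Fis1 and Mfn1 to Mfn2, with log2 differences of 0.15 and -0.11, and 0.310 for Bnip3 to Bnip3l, with a difference of 0.29. For Opa1 to Dnm1l the difference was 0.03 with all hearts and 0.06 without these mice.

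**Figure D3:**
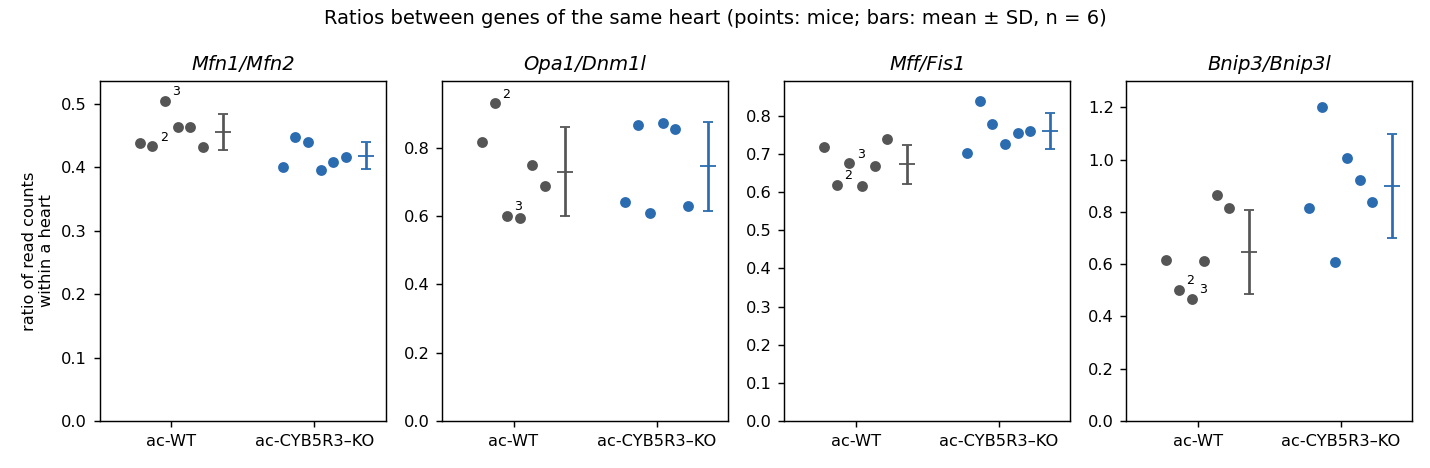
Ratios of the read counts of 2 genes within the same heart, not corrected for transcript length, on linear axes from 0, with 1 point per mouse and the mean ± SD of 6 mice. The Mff to Fis1 ratio lies at 0.615 to 0.738 in ac-WT hearts and at 0.703 to 0.838 in ac-CYB5R3–KO hearts, and each of the 4 ratios overlaps between the groups.

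Of 48 other genes of fusion, fission and mitophagy, 46 were tested, all but Pld6 and Gdap1. Of these, 23 were lower and 23 higher, with a median log2 fold change of -0.03. EdgeR called 0 at an adjusted p under 0.05, limma-voom called 0 and DESeq2 called 1, Mtfp1, against 2.45% of all genes in DESeq2. At an unadjusted p under 0.05 there were 7 of 46 (15.2%), close to the 14.6% of all genes, with 4 lower (Miga2, Mtfp1, Phb1 and Phb2) and 3 higher (Sqstm1, Gabarapl1 and Fbxl4). Of 10 further fusion genes 7 were lower, of 9 further fission genes 4 were lower, and of 27 further mitophagy genes 12 were lower. Groups that did not overlap were found for Mtfp1, which was lower (1.04% of all genes were lower without overlap), and for Gabarapl1, which was higher (0.51% were).

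Mtfp1, an inner membrane protein that promotes fission, had the lowest log2 fold change of the fission list. Its levels were 21.8, 27.6 and 72.5 CPM (lowest, median and highest) in ac-WT hearts and 16.6, 18.4 and 21.5 CPM in ac-CYB5R3–KO hearts, so that all 6 of the latter lay below all ac-WT hearts. The log2 fold change was -1.01 (SE 0.27, edgeR unadjusted p = 0.00224, adjusted p = 0.175), and the exact permutation p was 0.00216, the smallest this test can give. Its highest values were those of ac-WT mice 2 and 3, and without them the log2 fold change was -0.42 (edgeR unadjusted p = 0.00244). Over 23 alternatives its values ran from -1.23 to -0.21. The unadjusted p was under 0.05 in 22, all but the fit with the cardiomyocyte covariate (edgeR unadjusted p = 0.144). Mtfr2, a fission regulator with the highest log2 fold change of that list, stood at 1.18 CPM or less in every heart, with a log2 fold change of 0.38 (edgeR unadjusted p = 0.230).

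Miga2, a mitoguardin of the outer membrane that promotes fusion, was measured at 33.9 ± 18.6 CPM in ac-WT and 18.6 ± 1.42 CPM in ac-CYB5R3–KO hearts (SD, n = 6 each). The log2 fold change was -0.86 (edgeR unadjusted p = 0.00769, adjusted p = 0.206) with all hearts and -0.25 (edgeR unadjusted p = 0.0562) without ac-WT mice 2 and 3, which held 50.7 and 63.3 CPM. The proteases OMA1 and YME1L1 cleave OPA1. Oma1 had a log2 fold change of -0.19 (edgeR unadjusted p = 0.126), and Yme1l1 the highest of the fusion list, 0.08 (edgeR unadjusted p = 0.493).

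Among the 27 further mitophagy genes, Sqstm1 and Gabarapl1 were the 2 with an unadjusted p under 0.01, both higher (1.33% of all genes were higher at that p). Leaving out 1 mouse, their edgeR unadjusted p reached up to 0.0242 and 0.0183. Sqstm1, the autophagy receptor p62, was measured at 225 ± 48.1 CPM in ac-WT and 311 ± 45.2 CPM in ac-CYB5R3–KO hearts, and 4 of the latter lay above every ac-WT heart. Its log2 fold change was 0.47 (SE 0.16, edgeR unadjusted p = 0.00956, adjusted p = 0.215) and 0.32 without ac-WT mice 2 and 3. Gabarapl1, an ATG8 protein to which BNIP3 and NIX bind, was measured at 32.3 to 44.7 CPM in ac-WT hearts and at 45.3 to 73.1 CPM in ac-CYB5R3–KO hearts, without overlap. Its log2 fold change was 0.40 (SE 0.13, edgeR unadjusted p = 0.00792, adjusted p = 0.207) and 0.34 without ac-WT mice 2 and 3. Phb1, a prohibitin of the inner membrane, had the lowest log2 fold change of the mitophagy list, -0.43 (edgeR unadjusted p = 0.0196), and one of -0.19 without these mice. In the NCBIM37 annotation, an exon of Sqstm1 overlaps the antisense gene 3010026O09Rik, and one of Gabarapl1 the antisense lincRNA 1700101I11Rik. As for Mff, the strand setting of the counting is not given.

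With total counts in place of TMM, the median over all genes was a log2 fold change of 0.26 in place of -0.01. Bnip3 stood at 0.95 and Bnip3l at 0.58 with this scaling, which is 0.69 and 0.32 above that median. Mfn1 stood at -0.07 and Pink1 at -0.01, which is -0.32 and -0.27 relative to it. Mfn2, Fis1 and Dnm1l stood at 0.05, 0.14 and 0.24, above 0, but at -0.20, -0.11 and -0.02 relative to the median, and Opa1 stood at 0.29, or 0.03 relative to it. Over 23 alternatives, Bnip3 was higher in ac-CYB5R3–KO hearts in all 23, with an unadjusted p under 0.05 in each and log2 fold changes of 0.44 to 1.14. Bnip3l was higher in all 23, with an unadjusted p under 0.05 in 22 and values of 0.19 to 0.58. Mfn1 had an unadjusted p under 0.05 in 12 of the 23 and changed sign in 1, and its values ran from -0.50 to 0.07.

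**Figure D4:**
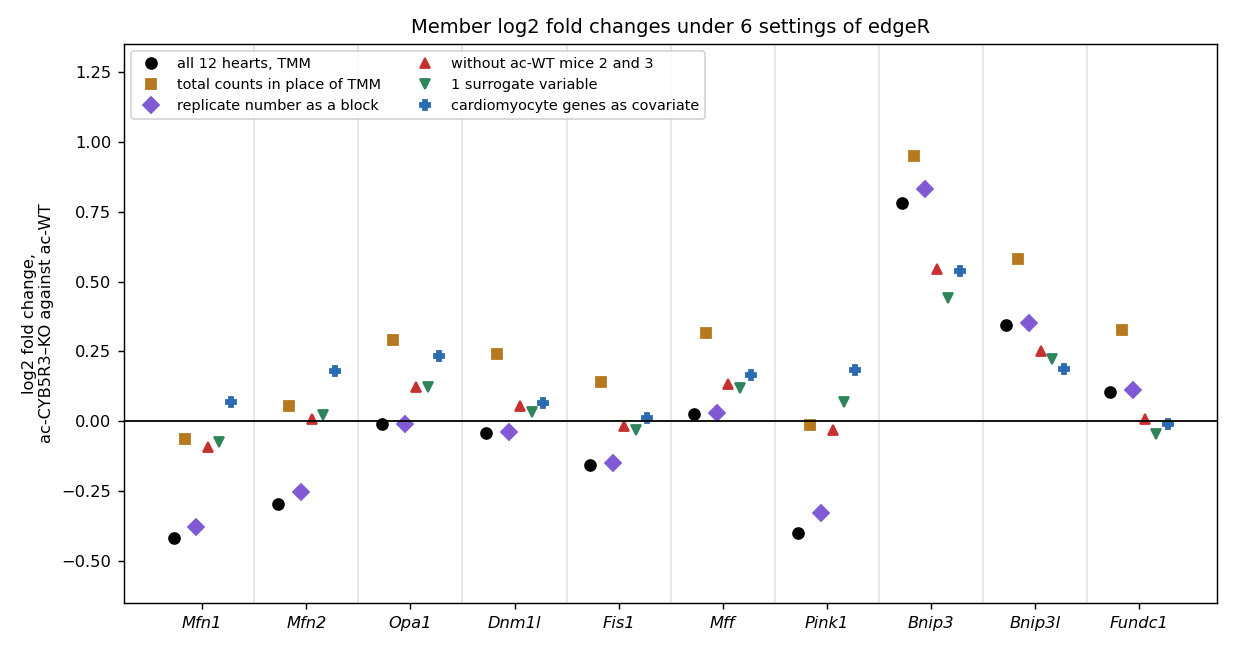
Log2 fold changes of the 10 members (ac-CYB5R3–KO against ac-WT) in edgeR with TMM and under 5 alternatives. Bnip3 and Bnip3l stay above 0 under all 6, whereas Mfn1, Mfn2 and Pink1 run from -0.42, -0.30 and -0.40 with TMM and all hearts to 0.07, 0.18 and 0.18 with the cardiomyocyte markers as a covariate.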

How the data were processed

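Whole hearts of 6 ac-WT mice and 6 ac-CYB5R3–KO mice were analysed by RNA-Seq. The authors deposited raw read counts for 53700 Ensembl genes, 1 column per heart, neither normalized nor filtered. The libraries came from a stranded total RNA kit and were read as 75 bp unpaired reads. The submitters' processing notes name STAR, featureCounts and GRCm39, whereas the study's methods name STAR and mm9 with Cufflinks and Cuffdiff, so the build behind the counts is unsure, and coordinates and exon lengths printed here are those of the GENCODE annotation of NCBIM37 (mm9). The annotation changes RPKM levels but not the fold changes. The strand setting is not given in the sources used here.

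Counts were filtered (filterByExpr, minimum count 10), scaled by TMM and tested with edgeR's quasi-likelihood test (version 4.0.16, under R 4.3.3), two-sided and without covariates, with Benjamini-Hochberg adjustment over 17847 genes. Single genes and ratios were tested by exact permutation over all placements of the mice (smallest p 0.00216), genes on log2(CPM + 1). Total counts per heart were 43393183 to 53754284, and the biological coefficient of variation was 26.5%, so most values are limited by differences between mice more than by counting error. The hearts are from separate mice. No label says that mice with equal numbers in the 2 groups are related, so the numbers were not taken to pair them. Their deviations correlated at -0.16 to 0.36 over 6 pairs, with a mean of 0.13 against -0.03 for the other pairs. This does not settle whether they are paired, and a fit with the replicate number as a block is given beside the main one.

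The members, gene lists and tests were chosen with earlier results of these data known. Named were all members, Cyb5r3, Oma1, pathway genes with an unadjusted p under 0.01, and the gene with the lowest and the gene with the highest log2 fold change of each pathway list. Phb2, Fbxl4 and genes outside this rule were named after their values were seen. A gene of the mitophagy list and its ratio entered the counts and the adjustment but are not reported here. Marker lists covered cardiomyocytes, fibroblasts, red blood cells, cartilage and airway, lymphocytes, adipose tissue, skeletal muscle, endothelium, smooth muscle and macrophages. Alternatives were DESeq2 1.42.0, limma-voom (limma 3.58.1), other scalings and filters, a replicate block, 1 surrogate variable (sva 3.50.0), marker covariates and leaving out mice. In simulated counts with 100 of 17847 genes changed by a log2 of 1 and 100 by 0.5, edgeR found 64 and 8, with 0 false calls, limma-voom 61 and 8 with 0, and DESeq2 74 and 25 with 21. Promoter sequences are from RefSeq on GRCm38.p6.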

Additional observations from a re-analysis of the deposited data

Results flagged for a closer look

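In 46 groups of 6 values (the 10 members, 8 further pathway genes, Cyb5r3 and 4 ratios, in each group of mice), 1 sample lay far from the others of its group by Dixon's test, which chance alone gives in about 1 in 20 groups. This was Pink1 in ac-WT mouse 2, at 375 CPM, where the other 5 ac-WT hearts lay between 128 and 202 CPM. The same heart had the lowest TMM factor, 0.570, by which its CPM are divided, and the highest cardiomyocyte marker sum, 46475 CPM. Its Pink1 read count was 10728 of 50259698, near that of ac-WT mouse 1, 10340 of 53754284. The distance in CPM thus depends on the scaling. The part of the cardiomyocyte content in the value was not tested.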

How the results depend on the processing

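At this spread between mice, simulated log2 changes of 0.5 were recovered in 8 of 100 genes by edgeR, so a member that misses the adjusted threshold is not shown to be level. The count of genes called at an adjusted p under 0.05, 18 in edgeR, was 437 in DESeq2, 2 in limma-voom, 8 with total counts, 35 with no filter, 2 with the replicate block, 3 with 1 surrogate variable, 2 with the cardiomyocyte covariate, 474 with the red blood cell covariate (chosen after seeing the data), 7 without ac-WT mice 2 and 3, and 2 (without ac-WT mouse 3 or 5, or ac-CYB5R3–KO mouse 1 or 4) to 38 (without ac-WT mouse 4) leaving out 1 mouse. The count at an unadjusted p under 0.05, 2614, was 1401 with the surrogate variable, 1048 with the cardiomyocyte covariate, 4726 with the red blood cell covariate and 1461 without ac-WT mice 2 and 3. The cause was not tested.

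Of the members, 1 was called in DESeq2 and 1 with the red blood cell covariate, Bnip3 in both, against 0 in edgeR, and 0 with the replicate block. Members at an unadjusted p under 0.05 went from 3 to 1, Bnip3, with the cardiomyocyte covariate, where 5.87% of all genes had such a p. Of the 46 other pathway genes tested, 1 was called in DESeq2 and 1 with the red blood cell covariate, Mtfp1 in both. Those at an unadjusted p under 0.05, 7 in the main fit, were 2 with the surrogate variable, where 1401 of 17847 genes had such a p. They were 1, Gabarapl1, with the cardiomyocyte covariate (5.87% of all genes) and 14 with the red blood cell covariate (26.5%). Without ac-WT mice 2 and 3 they were 4 (7.98% of all genes). Leaving out 1 mouse they were 7 to 11, with 11 without ac-WT mouse 1 or 6, where 3070 of 18011 and 3368 of 18022 genes had such a p. Cyb5r3 missed an adjusted p of 0.05 in limma-voom (log2 fold change -1.17), with total counts (-1.03), with the replicate block (-1.18, adjusted p = 0.100) and without ac-WT mouse 3 or 5 or ac-CYB5R3–KO mouse 1, 2, 3, 4 or 5 (over all 12 such fits -1.31 to -1.08), and its adjusted p over all alternatives ran from 1.39e-06 to 0.315.

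Log2 fold changes of single genes changed sign as follows. With total counts, Mfn2 was 0.054, Opa1 0.29, Dnm1l 0.24, Fis1 0.14 and Oma1 0.083. This scaling moved the median of all genes to 0.26, and relative to it Mfn2 was -0.20, Dnm1l -0.02, Fis1 -0.11 and Oma1 -0.17, still lower, and Opa1 0.03. With no filter, Opa1 was 0.019. With 1 surrogate variable, Mfn2 was 0.021, Opa1 0.12, Dnm1l 0.034, Pink1 0.067, Fundc1 -0.046 and Yme1l1 -0.060. With the cardiomyocyte covariate, Mfn1 was 0.068, Mfn2 0.18, Opa1 0.23, Dnm1l 0.067, Fis1 0.010, Pink1 0.18, Fundc1 -0.010 and Yme1l1 -0.059. With the red blood cell covariate, Mtfr2 was -0.13. Without ac-WT mice 2 and 3, Mfn2 was 0.0092, Opa1 0.12, Dnm1l 0.055 and Yme1l1 -0.016. Leaving out 1 mouse, Opa1 ran from -0.071 to 0.098, Dnm1l from -0.074 to 0.023 and Mff from -0.0062 to 0.074. None of these genes was called in edgeR with all hearts.

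Leaving out 1 mouse, the log2 difference of the ratio Opa1 to Dnm1l ran from -0.024 to 0.10, that of Mff to Fis1 from 0.15 to 0.21, that of Mfn1 to Mfn2 from -0.14 to -0.095 and that of Bnip3 to Bnip3l from 0.39 to 0.59. Further, 3 ratios passed an adjusted p of 0.05 without ac-CYB5R3–KO mouse 3 (exact permutation adjusted p = 0.0361 for Mff to Fis1, Mfn1 to Mfn2 and Bnip3 to Bnip3l), and Mff to Fis1 also without ac-WT mouse 6 (exact permutation adjusted p = 0.0325). With the replicate number as a block, Bnip3 had a log2 fold change of 0.83, Bnip3l of 0.35 and Mfn1 of -0.38, and an exact sign-flip test gave adjusted p-values of 0.104 for these 3 ratios. Apart from the counts and Cyb5r3 above, the block changed no call. The remaining results, 388 of 424 values for single genes and 164 of 217 for the comparisons, kept their direction and their side of the threshold, or for counts stayed within 1.5 times.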
